A study of Mus musculus with 39 samples.

Results

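Per1, Per2 and Per3 are the mouse Period genes, and their rows were taken from the raw gene count table by Entrez ID (18626, 18627 and 18628), 3 of 27179 gene IDs. All 3 passed the filter on low counts and were read in every library, with 1349 to 7507 counts for Per1, 534 to 5205 for Per2 and 261 to 1962 for Per3. The RNA came from mouse parathyroid glands, small endocrine glands of the neck, collected at 6 times of day spaced 4 h apart. Knockout glands (KO, 18 samples) came from PTHcre;Bmal1 flox/flox mice, in which a human parathyroid hormone promoter drives Cre and loxP sites flank exon 8 of Bmal1 (symbol Arntl). Control glands (WT, 21 samples) came from Bmal1 flox/flox littermates without Cre, so both genotypes carried the loxP sites and only KO mice carried the transgene. Each sample pooled glands of 2 male mice aged 11 weeks, and p-values therefore measure the spread between such pools. Times are zeitgeber times (ZT, hours after lights on), with 3, 3, 3, 2, 3 and 4 KO samples and 3, 4, 2, 3, 5 and 4 WT samples for ZT 0, 4, 8, 12, 16 and 20. For 3 samples titled ZT16 (KO replicate 1, WT replicates 4 and 5) another label gave ZT20, and titles were followed.

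PER proteins are the negative arm of the circadian clock. BMAL1 pairs with CLOCK or NPAS2 on E-box sites of the Per and Cry genes, and PER and CRY proteins then enter the nucleus together and repress that pair, which closes a loop of about a day. Casein kinases and ubiquitin ligases set how long PER proteins last. Per1 and Per2 also answer to signals from outside the cell, through cAMP, glucocorticoids and temperature, whereas Per3 is the paralog that the mouse central clock can do without. PER expression cycles in most mouse tissues, including endocrine glands.

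Libraries held 38111766 to 68938704 counts (median 55836787). The targeted gene Arntl averaged 16.8 ± 6.26 CPM in KO and 22.6 ± 12.3 CPM in WT (SD, n = 18 and 21; log2 fold change -0.25 ± 0.19, edgeR adjusted p = 0.465). CPM here is the count scaled to library size with trimmed-mean factors. The order of the genotypes' ranges turned over the day. At ZT0 Arntl was at 20.0 to 31.5 CPM in KO and 39.5 to 42.4 CPM in WT. That difference did not pass (log2 fold change -0.67 ± 0.30, edgeR adjusted p = 0.826). At ZT12 both KO libraries (8.24 and 12.5 CPM) lay above every WT library (2.07 to 4.43 CPM; log2 fold change 1.76 ± 0.35, edgeR adjusted p = 0.0204). Reads of the exons that Cre leaves in place were counted for Arntl too, so its level does not check the genotype labels. All 6 parathyroid markers were measured, with summed levels of 174589 to 247456 CPM in KO libraries and 185823 to 352569 CPM in WT libraries. Other tissue was also read. The 8 thyroid follicle markers summed to 4.76 to 33843 CPM in KO and 2.18 to 61667 CPM in WT, and the 9 lymphoid markers to 7.40 to 473 CPM in KO and 6.36 to 1093 CPM in WT. Per the labels excision was limited to the parathyroid, so cells of these other tissues would keep Bmal1 in both genotypes. In pooled glands fewer cells of a type and less RNA per cell cannot be told apart.

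In the mm10 build Per1 spans chr11:69095217-69109960 on the plus strand, Per2 chr1:91415982-91459324 on the minus strand and Per3 chr4:151003652-151044665 on the minus strand. Exons covered 5631, 5856 and 9608 bases. Per3 lies within Camta1 on the same strand over 41014 bases and overlaps Uts2 over 4714 bases, and Per2 overlaps the long noncoding RNA gene Gm35591 over 14768 bases, so reads could be shared between these genes. Promoter windows of 300 bases, from 250 before to 50 after the start, are shown for 2 of the 3 genes (sequences from RefSeq, GRCm38.p6). Sites outside these windows were not searched, and binding of any factor within them was not tested. Capitals mark matches on either strand to the E-box CACGTG, the E'-box CACGTT, the D-box TTATGTAA, the cAMP response element TGACGTCA or its first letters TGACGT, the palindromic glucocorticoid response element and the ROR core AGGTCA.
Per1 start 1, chr11:69098699-69098998, plus strand: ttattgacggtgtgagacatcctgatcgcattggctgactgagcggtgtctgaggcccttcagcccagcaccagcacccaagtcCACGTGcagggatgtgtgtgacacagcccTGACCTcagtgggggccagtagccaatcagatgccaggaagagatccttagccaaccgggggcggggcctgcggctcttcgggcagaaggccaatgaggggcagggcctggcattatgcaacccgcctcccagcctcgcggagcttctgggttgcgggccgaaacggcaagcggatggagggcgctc
Per1 start 2, chr11:69099902-69100201, plus strand: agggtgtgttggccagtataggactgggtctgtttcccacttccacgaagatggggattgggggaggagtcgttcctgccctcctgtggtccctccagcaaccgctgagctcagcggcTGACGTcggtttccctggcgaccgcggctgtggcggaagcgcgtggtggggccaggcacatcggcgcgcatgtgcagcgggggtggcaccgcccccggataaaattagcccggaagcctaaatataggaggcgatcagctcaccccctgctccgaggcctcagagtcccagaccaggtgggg
Per3, chr4:151044616-151044915, minus strand: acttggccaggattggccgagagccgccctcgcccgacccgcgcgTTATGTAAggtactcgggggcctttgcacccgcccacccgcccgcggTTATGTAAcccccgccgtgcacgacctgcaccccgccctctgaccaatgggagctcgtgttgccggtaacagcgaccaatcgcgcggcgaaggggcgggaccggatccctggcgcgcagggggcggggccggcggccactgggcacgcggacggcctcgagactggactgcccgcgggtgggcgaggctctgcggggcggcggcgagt

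The first Per1 window held 1 E-box, with its first base at position -166 from the start, and an ROR core at position -137 on the opposite strand, seen there as TGACCT. The second Per1 window held TGACGT at position -132. The Per3 window held a pair of D-boxes, at positions -205 and -158, and no E-box or E'-box letters. Of 32851 promoter windows of the same length, 7.15% held CACGTG, 4.685% CACGTT, 0.938% TTATGTAA, 1.79% TGACGTCA, 7.513% TGACGT, 0.009% the glucocorticoid response element and 16.255% AGGTCA. The full cAMP response element contains its first letters, so those shares overlap.

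Per1 was the most abundant Period transcript per length and Per3 the least in both genotypes. Levels per kilobase of exon averaged 11.9 ± 4.27 CPM for Per1, 9.85 ± 3.06 for Per2 and 1.40 ± 0.621 for Per3 in KO (SD, n = 18). The same levels averaged 12.5 ± 5.59 for Per1, 7.85 ± 4.54 for Per2 and 1.60 ± 1.06 for Per3 in WT (SD, n = 21). The ranges of single libraries overlapped between genotypes for each gene over the whole day.

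Per2, whose loss disturbs the behavioural rhythm of mice, lay higher in KO glands at ZT0, ZT4 and ZT8, and the genotypes overlapped at ZT12 and ZT16. At ZT20 they were apart by the titles and overlapped by the other time label. At ZT0 the KO libraries held 39.7, 39.7 and 63.1 CPM of Per2, against 15.0, 20.2 and 25.4 CPM in WT. At ZT4 they held 29.6, 43.5 and 44.6 CPM, against 9.22, 17.2, 20.1 and 26.9 CPM in WT. Every KO library at these times lay above every WT library.

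At ZT8 the KO values of Per2 were 35.4, 51.9 and 65.1 CPM, against 29.0 and 29.6 CPM in the WT pair. At ZT20 they were 50.4, 59.3, 65.9 and 72.7 CPM in KO, against 37.2, 40.0, 46.8 and 47.4 CPM in WT. By the titles the genotypes were again apart at both times. By the other time label 2 WT libraries with 65.9 and 68.8 CPM belong to ZT20, and the genotypes then overlapped there. At ZT12, in contrast, the KO pair held 50.4 and 92.2 CPM of Per2, against 59.6, 74.9 and 92.9 CPM in WT. At ZT16 the values were 67.6, 83.3 and 84.0 CPM in KO, against 59.6, 65.9, 68.8, 85.2 and 94.1 CPM in WT. The genotypes overlapped at ZT12 and ZT16.

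Per3, a target of D-box factors as well as of the core clock, had lower levels in KO at ZT12, the time of its maximum in both genotypes. At ZT12 the KO pair held 21.8 and 22.6 CPM of Per3, against 35.6, 35.8 and 38.8 CPM in WT, with no overlap. At ZT16 the order turned, with 17.5, 21.8 and 21.9 CPM in KO, against 11.2, 12.2, 15.6, 17.6 and 19.8 CPM in WT, and the ranges overlapped. At ZT0 the KO values of 7.17, 7.23 and 7.94 CPM lay just above the WT values of 5.06, 6.43 and 6.84 CPM.

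At the other times the genotypes overlapped for Per3. The values at ZT4 were 6.00, 7.67 and 9.87 CPM in KO, against 5.63, 9.34, 9.87 and 11.7 CPM in WT. ZT8 gave 11.2, 14.2 and 19.2 CPM in KO, against 13.7 and 25.6 CPM in WT. ZT20 gave 8.43, 9.23, 12.8 and 14.6 CPM in KO, against 8.70, 10.3, 11.5 and 11.9 CPM in WT.

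Per1, an early responder to light and hormones in mouse tissues, overlapped between genotypes at every time. Its maximum fell at ZT12 in both, with 97.9 and 125 CPM in KO, against 94.8, 96.2 and 158 CPM in WT. At ZT0 the KO libraries spread from 28.3 through 56.1 to 70.3 CPM, around the WT values of 41.3, 43.3 and 55.0 CPM. At ZT16 the KO values of 59.5, 62.0 and 90.5 CPM lay inside the WT range, where 54.4, 72.3, 74.5, 119 and 128 CPM were measured. The remaining times gave Per1 levels of 39.4 to 93.7 CPM in KO and 44.6 to 65.7 CPM in WT.

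**Figure D1:**
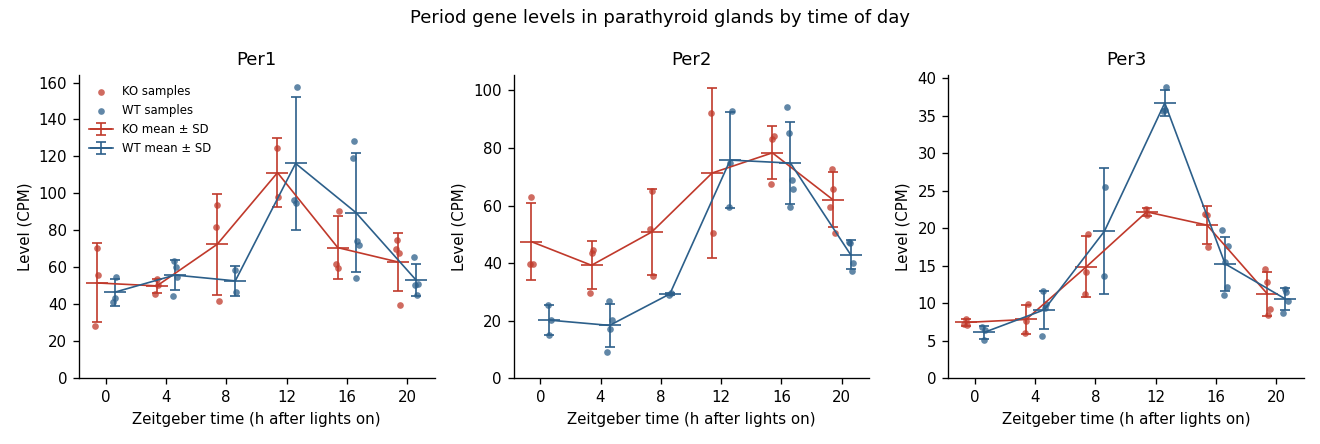
Level of Per1, Per2 and Per3 in CPM (vertical axes) by zeitgeber time in hours (horizontal axes), with KO in red and WT in blue; points are samples, and bars are group means ± SD. Per2 in KO lay above WT at ZT0, ZT4, ZT8 and, by the titles only, ZT20, while Per3 in KO reached 22.6 CPM at ZT12 against 35.6 CPM or more in WT.

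Over the 18 pairs of groups (3 genes at 6 times) 6 did not overlap by the titles, with Per2 above WT at ZT0, ZT4, ZT8 and ZT20, Per3 above WT at ZT0 and Per3 below WT at ZT12. By the other time label it was 5, without Per2 at ZT20. Of all 18661 genes tested, 5.45% had every KO library above every WT library at ZT0, 3.63% at ZT4, 11.5% at ZT8 and 4.79% at ZT20, and 10.1% had every KO library below at ZT12. At ZT8 WT had 2 libraries and at ZT12 KO had 2, so fewer values had to fall apart there.

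Ordered by mean, the lowest times of Per2 in WT were ZT4 and ZT0, followed by ZT8, ZT20, ZT16 and ZT12. The ranges of neighbours in this order were apart between ZT0 and ZT8, between ZT8 and ZT20 and between ZT20 and ZT16, and overlapped at the other steps. By the other time label the ZT20 and ZT12 ranges overlapped, and ZT16 was the highest time. In KO the order of Per2 was ZT4, ZT0, ZT8, ZT20, ZT12 and ZT16, and the ranges of all neighbours overlapped. The highest Per2 mean over the lowest was 2.00 in KO and 4.13 in WT.

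For Per3 the order in KO was ZT0, ZT4, ZT20, ZT8, ZT16 and ZT12 with no gap between neighbours. In WT it was ZT0, ZT4, ZT20, ZT16, ZT8 and ZT12, and only the ZT12 libraries stood clear of their neighbour. The highest over the lowest Per3 mean was 2.98 in KO and 6.01 in WT. Per1 ran through ZT4, ZT0, ZT20, ZT16, ZT8 and ZT12 in KO, with ZT12 clear of ZT8. In WT it ran through ZT0, ZT8, ZT20, ZT4, ZT16 and ZT12, with every neighbour overlapping. By the other time label ZT16 and ZT8 changed places in KO, and ZT20 and ZT4 in WT. The same quotient for Per1 was 2.23 in KO and 2.50 in WT, the closest of the 3 genes.

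The genotype effect was tested with edgeR over all 39 samples with time of day as a factor, and 7.69% of the 18661 genes passed at an adjusted p under 0.05 (3.58% as higher in KO). Per2 alone of the 3 Period genes passed, with 57.7 ± 17.9 CPM in KO and 46.0 ± 26.6 CPM in WT (SD, n = 18 and 21). With time as a factor the fitted KO level of Per2 was 1.53 times that of WT (log2 fold change 0.62 ± 0.14, SE, adjusted p = 0.00303, 95% interval 0.34 to 0.89). The CPM means are not adjusted for time, so their quotient differs from that fold. Per1 averaged 67.1 ± 24.0 CPM in KO and 70.4 ± 31.5 CPM in WT (0.03 ± 0.13, adjusted p = 0.926; interval -0.23 to 0.29). Per3 averaged 13.4 ± 5.97 CPM in KO and 15.4 ± 10.2 CPM in WT (-0.03 ± 0.11, adjusted p = 0.919; interval -0.26 to 0.20). For the effect over all times, these intervals of Per1 and Per3 leave room for log2 differences up to about 0.29 in size. They do not bound the difference at a single time. The sign of the Per1 effect turned under 3 alternatives and that of Per3 under 1. Without the time term Per2 did not pass (0.33, adjusted p = 0.450).

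At single times none of the 18 contrasts passed edgeR's test with adjustment over all genes. Of all genes, 0.0643% passed at ZT0, 0.075% at ZT4 and 0.0589% at ZT8. The shares for the later times were 0.161% (ZT12), 0.182% (ZT16) and 0.89% (ZT20). Unadjusted, 5 contrasts had p under 0.05 by edgeR. The share of all genes at that unadjusted cut was not counted, so this number has no background beside it. By DESeq2 2 contrasts passed after adjustment, Per2 at ZT0 (adjusted p = 0.00679) and Per2 at ZT4 (adjusted p = 0.0123). DESeq2 passed 0.279% of all genes at each of these times. The log2 fold change of Per2 ran from 1.24 ± 0.29 at ZT0 (edgeR adjusted p = 0.131) over 1.10 ± 0.27 at ZT4 (0.197) and 0.79 ± 0.33 at ZT8 (0.552) to -0.09 ± 0.32 at ZT12, 0.07 ± 0.25 at ZT16 and 0.53 ± 0.25 at ZT20 (0.240). By the other time label the ZT20 value was 0.31 ± 0.22 (adjusted p = 0.659). Of 7 fits of Per2 at ZT4 without 1 library, 1 passed by edgeR, that without WT replicate 2, the highest WT library (1.35, adjusted p = 0.0433). The values of these 7 fits ran from 0.89 to 1.35, with adjusted p up to 0.668. Leaving out a single library moved the Per2 value at ZT12 between -0.57 and 0.28.

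Per3 differed most at ZT12, by -0.73 ± 0.28 (adjusted p = 0.481 by edgeR and 0.308 by DESeq2), and had the opposite sign at ZT16, 0.42 ± 0.22 (adjusted p = 0.659). With tissue scores as covariates the ZT12 value was -0.58. Lymphoid content went with genotype at ZT12: the marker score (mean log2 CPM of the 9 genes) was 1.07 and 2.03 in the KO pair and -3.02 to -1.81 in WT. Its part in the ZT12 values of Per1, Per2 and Per3 was not tested beyond that covariate. For Per1 the 6 contrasts lay between -0.34 ± 0.29 at ZT16 and 0.46 ± 0.36 at ZT8. Leaving out a single library moved the first between -0.56 and -0.18 and the second between 0.23 and 0.72.

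**Figure D2:**
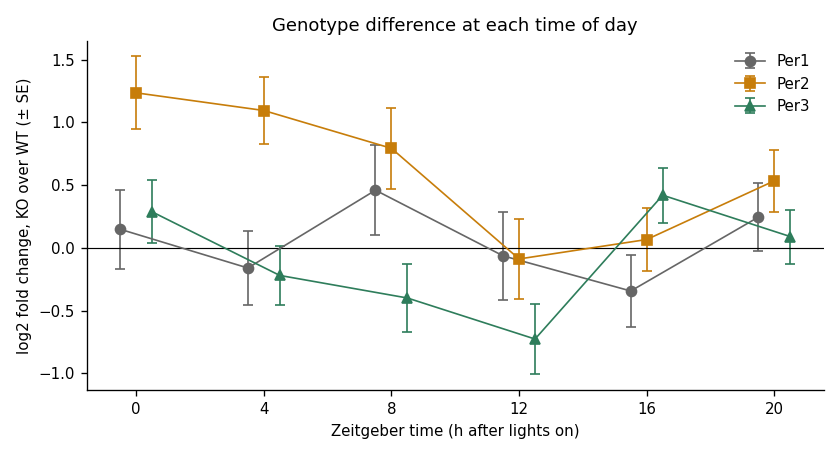
Log2 fold change of KO over WT ± SE from edgeR (vertical axis) for Per1 (grey circles), Per2 (orange squares) and Per3 (green triangles) by zeitgeber time in hours (horizontal axis). Per2 ran from 1.24 at ZT0 down to -0.09 at ZT12 and up to 0.53 at ZT20, and Per3 was lowest at ZT12, at -0.73.

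Daily rhythm was measured by fitting a cosine of 24 h to log2 CPM in each genotype, which gives an amplitude (mean to peak, on the log2 scale) and a peak time. In WT glands 0.248% of 18131 genes passed edgeR's test of the cosine, and all 3 Period genes were among them. Per2 (adjusted p = 4.94e-06) and Per3 (7.36e-05) passed in all 10 alternatives and without any single library, while Per1 sat at the threshold (0.0499) and passed in 5 of 10 alternatives and in 5 of 21 fits without 1 library. In KO glands 0.0779% of 17969 genes passed, Per3 among them (adjusted p = 5.97e-04), while Per1 (0.495) and Per2 (0.262) did not. DESeq2 also passed Per2 in KO (adjusted p = 0.00304).

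The Per2 amplitude was 0.49 ± 0.11 in KO and 1.16 ± 0.10 in WT (SE, n = 18 and 21), so that the fitted peak was 1.97 times the trough in KO and 5.01 times in WT. The KO amplitude was 42.0% of that in WT, a difference of -0.67 ± 0.15 (95% interval -0.98 to -0.37). It passed a two-sided permutation test of genotype labels within times (100000 resamples, p = 5.30e-04; adjusted p = 0.00318 over 6 tests of amplitude and peak time). The lowest point of the Per2 curve was 1.28 higher in KO on the log2 scale, and its highest point differed by -0.07. In edgeR's test of the difference in rhythm over all genes, which 3 genes (0.0161%) passed, Per2 did not pass (adjusted p = 0.509), nor did Per1 or Per3 (adjusted p = 1.00 for both). Without the 12 libraries of highest lymphoid score, which include both KO libraries of ZT12, the Per2 amplitude difference was -0.70 (adjusted p = 0.0808).

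The Per3 amplitude was 0.88 ± 0.10 in KO and 1.09 ± 0.13 in WT, a difference of -0.21 ± 0.16 (permutation p = 0.192, adjusted p = 0.384; 95% interval -0.55 to 0.12). Its KO cosine did not pass edgeR without the 12 lymphoid-rich libraries (adjusted p = 0.298), although the amplitude of edgeR's fit was 0.86 there and 0.87 with all libraries. The thyroid follicle score was -2.96 to -1.76 in 4 KO libraries and 1.05 to 5.36 in the other KO libraries. These 4 libraries, low in thyroid RNA, held 7.23 CPM of Per3 at ZT0, 21.8 CPM at ZT12, 21.8 CPM at ZT16 and 9.23 CPM at ZT20. Per1 in each of them was the lowest KO value of its time (28.3, 97.9, 59.5 and 39.4 CPM), and Per2 was the lowest at ZT0, ZT12 and ZT20 (39.7, 50.4 and 50.4 CPM). Over all KO libraries the deviations of Per1 and of the thyroid score from their group means had r = 0.503 and rho = 0.468 (n = 18, permutation p = 0.0668 and 0.0916, adjusted p = 0.801 and 0.943 over 24 relations), and r was 0.347 without the 2 libraries of most extreme score. In WT r was 0.202 for Per1 and 0.188 for Per2 (n = 21, permutation p = 0.416 and 0.5825, adjusted p = 0.821 for both). In WT replicate 1 of ZT0, ZT4 and ZT16 the thyroid score was -1.82, -3.32 and -0.77. Per1 there was 41.3, 44.6 and 119 CPM, the lowest of its group at ZT0 and ZT4 only. Per2 there was 25.4, 9.22 and 94.1 CPM, the lowest of its group at ZT4 and the highest at ZT0 and ZT16. Per1 had the smallest amplitude in WT, and it was 0.48 ± 0.16 in KO and 0.57 ± 0.12 in WT (difference -0.09 ± 0.20, permutation p = 0.625, adjusted p = 0.750; interval -0.50 to 0.31).

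Fitted peaks of the 3 genes lay between ZT 11.8 and ZT 15.4. Per3 peaked at ZT 13.3 ± 0.4 in KO and ZT 11.8 ± 0.4 in WT, Per1 at ZT 12.8 ± 1.1 in KO and ZT 12.7 ± 0.8 in WT, and Per2 at ZT 15.4 ± 0.8 in KO and ZT 14.6 ± 0.4 in WT (SE). The Per3 peak was later in KO by 1.47 ± 0.58 h, which did not pass after adjustment (permutation p = 0.0270, adjusted p = 0.0810). This Per3 difference passed in 0 of 6 alternatives (permutation adjusted p from 0.0804 to 0.233) and in 4 of 39 fits without 1 library. Those 4 left out KO replicate 3 of ZT8 or of ZT20, WT replicate 1 of ZT4 or WT replicate 1 of ZT8 (adjusted p from 0.0221 to 0.03465). Over all 39 fits the adjusted p reached 0.174. On simulated data the peak time test gave somewhat too many calls where amplitudes differed. The Per2 peak differed by 0.80 ± 0.92 h (adjusted p = 0.485) and the Per1 peak by 0.04 ± 1.39 h (adjusted p = 0.975), and the sign of the Per1 difference turned under 3 alternatives. Per2 followed Per3 by 2.18 ± 0.91 h in KO and 2.84 ± 0.58 h in WT. The SE of these gaps treats the 2 peaks as independent, although both genes were measured in the same libraries.

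**Figure D3:**
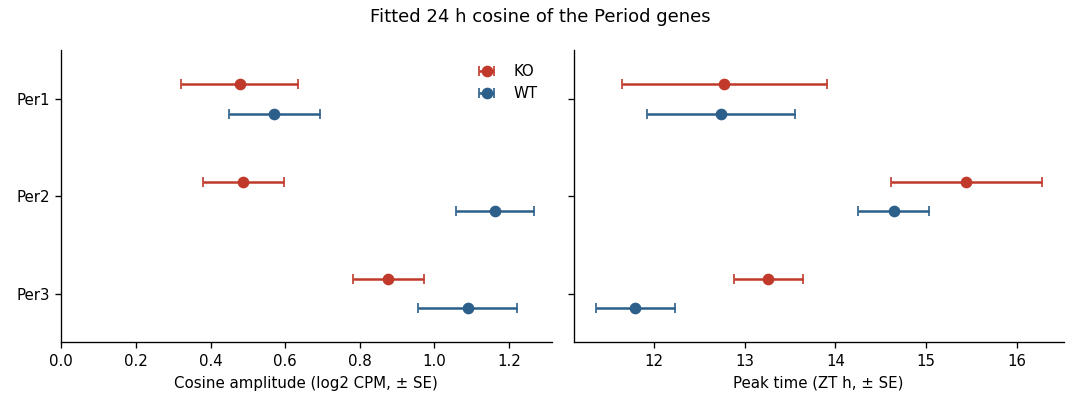
Amplitude (left, log2 CPM) and peak time (right, ZT in hours) of the fitted 24 h cosine ± SE for each Period gene (rows), with KO in red above WT in blue. The Per2 amplitude was 0.49 in KO and 1.16 in WT, and the Per3 peak lay at ZT 13.3 in KO and ZT 11.8 in WT.

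Ratios between paralogs compare 2 genes within a library, so library scaling cancels from them and gene length cancels from the difference between genotypes. The Per2 over Per1 ratio was higher in KO by 0.60 ± 0.13 on the log2 scale, or 1.51 times (permutation p = 5.00e-05, adjusted p = 1.50e-04 over 3 ratios). The Per3 over Per2 ratio was lower in KO, with a log2 difference of -0.64 ± 0.16, or 0.643 times (permutation p = 4.50e-04, adjusted p = 6.75e-04). The Per3 over Per1 ratio differed by -0.04 ± 0.18 (adjusted p = 0.825), with its sign turning under 1 alternative. Both differences with Per2 passed in the 5 alternatives that can move a ratio within a library and in all 39 fits without 1 library. The genotype effects of the single genes were 0.03 for Per1, 0.62 for Per2 and -0.03 for Per3 on the log2 scale. Both ratio differences thus mainly restate the Per2 difference given above and are no separate evidence.

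In counts, KO glands held 0.961 Per2 counts per Per1 count at ZT0 and 0.774 at ZT4, against 0.428 and 0.310 in WT. At ZT12 the quotient was 0.617 in KO and 0.661 in WT. Over the day the log2 Per2 over Per1 ratio had an amplitude of 0.33 ± 0.11 with its peak at ZT 20.0 ± 1.3 in KO, and 0.72 ± 0.10 with its peak at ZT 16.1 ± 0.6 in WT. The log2 Per3 over Per2 ratio had an amplitude of 0.53 ± 0.14 with its peak at ZT 11.3 ± 0.9 in KO, and 0.82 ± 0.12 with its peak at ZT 6.90 ± 0.54 in WT. These curves are given as descriptions, with no test of their difference.

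**Figure D4:**
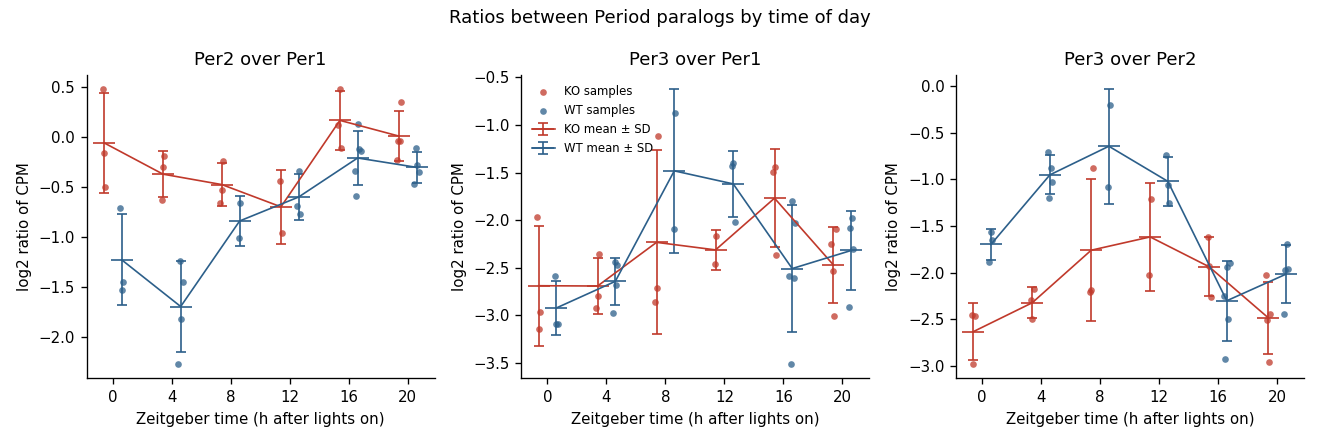
Log2 ratio of CPM between 2 Period genes in each sample (vertical axes) by zeitgeber time in hours (horizontal axes), with KO in red and WT in blue; points are samples, and bars are group means ± SD. The Per2 over Per1 mean at ZT4 was -0.37 in KO and -1.69 in WT, and at ZT12 it was -0.70 in KO and -0.60 in WT.

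Libraries of the same genotype and time also varied together in Per1 and Per2. The deviations of log2 CPM from the group means correlated between Per1 and Per2 in KO (Pearson's r = 0.732, Spearman's rho = 0.715, n = 18; permutation p = 0.00245 and 0.00396) and in WT (r = 0.618, rho = 0.705, n = 21; p = 0.00201 and 0.00261). After adjustment over 6 relations the p-values were 0.00735 for r and 0.0119 for rho in each genotype, and r was 0.683 in KO and 0.614 in WT without the 2 libraries farthest from the median of Per1. Per1 and Per3 did not deviate together (r = -0.087 in KO and 0.003 in WT, adjusted p = 0.955 and 0.992). Per2 and Per3 had r = 0.075 in KO (adjusted p = 0.955) and r = 0.560 in WT (adjusted p = 0.068), and the WT value rested on 2 libraries, with r = 0.233 without them. Against the thyroid, lymphoid, muscle and fat scores, 0 of 24 such relations of the 3 genes passed after adjustment in permutation tests, the closest being Per1 with muscle in WT (r = -0.580, permutation p = 0.0267, adjusted p = 0.640).

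The genes most like each Period gene were ranked by Pearson's r of log2 CPM over the 21 WT libraries among 12987 genes, and all of them share the libraries and their times. Per1 went with the hypoxia pathway gene Hif3a (r = 0.758 in KO and 0.924 in WT), Rgma, Gadd45g, Lonrf1 and the deubiquitinase gene Usp2 (r = 0.816 in KO and 0.862 in WT). Per2 went with Cry2, whose protein pairs with PER (r = 0.804 in KO and 0.900 in WT), the cell cycle kinase gene Wee1, the glucocorticoid-induced gene Fkbp5, Lonrf1 and Sox4. Per3 went with Tef (r = 0.737 in KO and 0.911 in WT), Dbp (r = 0.701 in KO and 0.877 in WT) and Nr1d2 (r = 0.814 in KO and 0.847 in WT), followed by Ciart and Maco1. Tef and Dbp encode activators that bind D-boxes, the motif found in the Per3 window. In the 18 KO libraries the same genes ranked otherwise. For Per1 the KO ranks were 11 for Lonrf1, 14 for Usp2, 66 for Hif3a, 82 for Rgma and 639 for Gadd45g. For Per2 they were 30 for Cry2, 400 for Sox4, 450 for Lonrf1, 451 for Fkbp5 and 588 for Wee1. For Per3 they were 1 for Nr1d2, 4 for Tef, 6 for Dbp, 147 for Maco1 and 385 for Ciart.

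The partners and regulators of PER were read as lists. Both partner genes, Cry1 and Cry2, were higher in KO, by 1.3 ± 0.12 and 0.52 ± 0.08 on the log2 scale (edgeR adjusted p = 1.21e-09 and 1.66e-05). None of 9 genes for the kinases and ubiquitin ligase parts that act on PER or CRY passed, with a median log2 fold change of -0.02 against 0.000977 over all genes. The smallest adjusted p was that of the PER kinase gene Csnk1e, with 9.79 ± 1.44 CPM in KO and 11.3 ± 2.85 CPM in WT (-0.19 ± 0.09, edgeR adjusted p = 0.201). At an unadjusted p under 0.05 edgeR counted 2 of these 9, and DESeq2 passed 0 after adjustment. The share of all genes at that unadjusted cut was not counted for any list. Of the 4 activator genes 2 were higher (Npas2 by 2.87 ± 0.25, Arntl2 by 0.39 ± 0.10, on the log2 scale). Of 8 other E-box and D-box genes 1 was lower, Nr1d2 (-0.85 ± 0.13, adjusted p = 4.64e-05). For these 8 genes DESeq2 passed 3, 1 as higher and 2 as lower, where it passed 10.6% of all genes, and edgeR counted 4 at an unadjusted p under 0.05. Over all 27 clock genes outside the Period family 6 were higher and 1 was lower (25.9%, against 7.69% of all genes), with a median of -0.02.

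Rhythms passed for 8 of these 27 genes in WT and for 5 in KO, against 0.248% and 0.0779% of all genes. Arntl passed in KO only (edgeR adjusted p = 0.00111, against 0.109 in WT). Its amplitude was 0.72 ± 0.09 in KO and 1.49 ± 0.26 in WT, so passing the threshold does not measure amplitude. The fitted amplitude was smaller in KO for 24 of 27 (88.9%), against 60.0% of all 18661 genes tested, and the median difference was -0.13, against -0.02 over all genes. The amplitude of Cry2 was 0.20 ± 0.07 in KO and 0.58 ± 0.07 in WT, and that of Cry1 was 0.07 ± 0.07 in KO and 0.86 ± 0.05 in WT. Nr1d2, which encodes a REV-ERB repressor, had an amplitude of 1.09 ± 0.12 in KO and 1.22 ± 0.14 in WT, and its peak was at ZT 11.8 ± 0.4 in KO and ZT 10.2 ± 0.4 in WT.

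**Figure D5:**
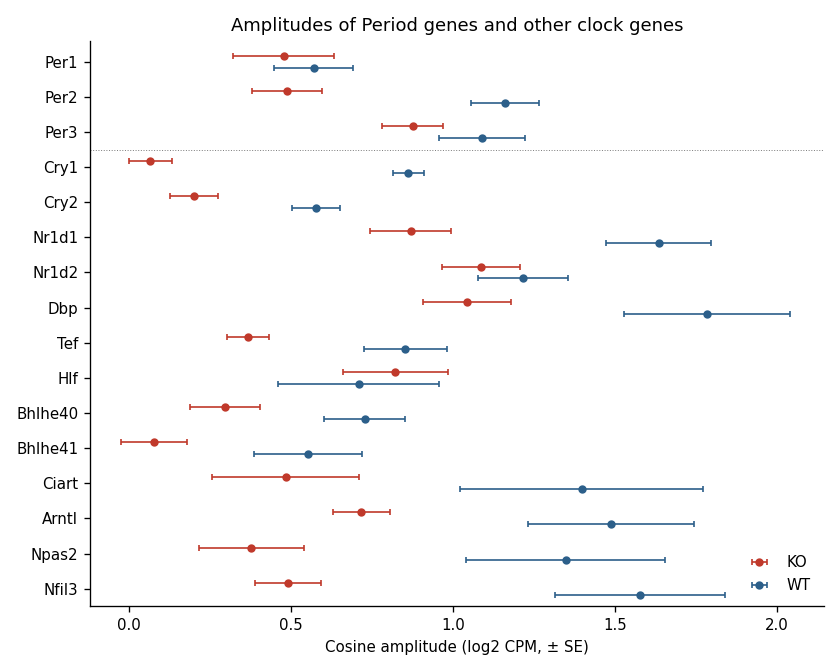
Amplitude of the fitted 24 h cosine ± SE (horizontal axis, log2 CPM) for the 3 Period genes and 13 other clock genes (rows), with KO in red above WT in blue. The amplitude was smaller in KO for 12 of the 13 other genes (92.3%), against 88.9% of all 27 other clock genes and 60.0% of all genes tested. The 13 are a selection from the 27, with a median difference of -0.74 against -0.13 in the full list. Per1 and Per3 lay closer to their WT values than Per2 did.

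Genes of the inputs that reach Period promoters were read the same way, and of 27 such genes 0 were higher and 2 lower in KO (median log2 fold change 0.01). That is 7.41%, near the 7.69% of all genes, so the count shows nothing particular to the inputs. The glucocorticoid-induced gene Fkbp5 was lower, at 44.5 ± 22.1 CPM in KO and 70.1 ± 42.1 CPM in WT (-0.52 ± 0.15, adjusted p = 0.0242), the only one of 9 glucocorticoid response genes to pass. Hspa8, a constitutive heat shock chaperone gene, was also lower in KO (log2 fold change -0.42 ± 0.09, adjusted p = 0.00253), as 1 of 6 heat shock genes. None of 10 genes of the cAMP and immediate early response passed by edgeR or DESeq2, and 1 had an unadjusted p under 0.05. Among all 27 input genes DESeq2 also passed 0 as higher, and edgeR counted 2 as higher at an unadjusted p under 0.05. The share of all genes at that unadjusted cut was not counted. The Fkbp5 rhythm had an amplitude of 0.87 ± 0.16 with its peak at ZT 13.5 ± 0.6 in KO (adjusted p = 0.115), and 0.96 ± 0.14 with its peak at ZT 13.1 ± 0.6 in WT (adjusted p = 0.00264). The cold-inducible genes Cirbp and Rbm3 had fitted peaks at ZT 5.14 ± 0.75 and ZT 6.44 ± 0.69 in KO (edgeR adjusted p of the rhythm 0.115 and 0.0331). In WT their fitted peaks lay at ZT 4.24 ± 1.31 and ZT 6.35 ± 1.16 (0.270 and 0.233). Only the Rbm3 rhythm in KO passed.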

How the data were processed

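The authors deposited raw counts, whole numbers per gene and sample of parathyroid RNA. Per the submitters' processing notes, the tools were featureCounts 2.0.1, STAR 2.7.8a and DESeq2 1.30.1, on mm10, with no step named for each. Which annotation and which strand setting were used is not given in the sources used here, and overlapping genes may therefore share reads. Small counts (1 to 10) were even in 89.6% of cases, which is what counting both mates would give. Symbols matched 25275 of 27179 IDs (98.0% of counts). Replicates were compared by chi-square (36.1 to 372 per gene over 48 pairs), and none were copies.

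Tests on the counts used edgeR 4.0.16 (R 4.3.3; robust quasi-likelihood fit, TMM factors of 0.839 to 1.10, filterByExpr by group), with Benjamini-Hochberg adjustment over all genes tested and a threshold of 0.05. Lengths came from GENCODE M21 exons. Cosines of 24 h were fitted by least squares to log2 CPM (prior count 2). Permutation tests drew 100000 resamples within times (Python 3.11.15, numpy 2.4.6), and their smallest p is 1e-05. On simulated data the tests recovered most of the larger changes put in, and the peak time test gave somewhat too many calls where amplitudes differed. Recovery of smaller changes is not given here. DESeq2 1.42.0, its size factors, filters, tissue scores, time labels, a replicate block and leaving out libraries were tried.

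Named were the Period genes, up to 3 genes of smallest p in each list of clock and input genes, the 5 genes most like each Period gene (mean of at least 1 CPM in WT, proper symbol) and Arntl. Rhythm values of other list genes are examples chosen after their values were seen. Members, lists and tests were chosen with earlier results of these data known, so patterns already seen there, such as the Per2 differences, are no independent evidence. Results of 1 gene are not reported here by name.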

Additional observations from a re-analysis of the deposited data

Results flagged for a closer look

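The difference in Per2 amplitude between genotypes, -0.6745 on the log2 scale (0.49 in KO and 1.16 in WT), stood out because the genotypes' daily curves differed by a test of the difference itself (two-sided permutation, adjusted p = 0.00318 over 6 tests), while edgeR's test over all genes did not pass it (adjusted p = 0.509). For Per1, Per2 and Per3, the highest and lowest libraries of each group of 4 or 5 were also compared with the rest of that group by Dixon's test. It marked 0 of 12 cases, where chance alone marks about 1 in 20.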

How the results depend on the processing

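Of 333 values under alternatives, 312 kept their direction and side of the threshold, 8 lost it, 3 gained it and 10, all near 0, changed sign; 3 of the 333, the ratios under DESeq2 size factors, could not move. With no time term Per2 by genotype was 0.33 (not past). DESeq2 passed Per2 at ZT0 (1.23), at ZT4 (1.10) and its KO rhythm (adjusted p = 0.00304). Per1 in WT lost its rhythm with no filter (adjusted p = 0.0581), tissue scores (0.105), time as a factor (0.0633) and without the 12 lymphoid-rich libraries (0.0810). Without those 12 libraries Per3 in KO (0.298) and the Per2 amplitude difference (-0.70) did not pass, the Per1 genotype value was -0.024, the Per1 peak difference -0.23 h and the Per3 over Per1 ratio 0.042. These fits hold no KO library of ZT12, so the contrast at ZT12 could not be fitted. With no time term Per1 was -0.068. Tissue scores gave 0.11 for Per3, 0.22 for Per1 at ZT12 and -0.16 h for the Per1 peak, which was -0.18 h with the 3 samples placed at ZT20. Per2 at ZT20 was 0.31 with the 3 samples placed at ZT20, against 0.53. The cause of these changes was not tested.

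The replicate numbers did not pair the samples: the deviations of 17 same-numbered pairs had r from -0.293 to 0.510, 8 were over 0.1, and 8 of 39 samples correlated best with their own number. With the replicate block Per2 by genotype was 0.60 (adjusted p = 0.00827), Per1 -0.0065 and Per2 at ZT16 -0.0030, and the Per1 rhythm in WT did not pass (0.134).

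Leaving out each library changed 59 of 819 values. Genotype effects ranged from -0.014 to 0.073 (Per1) and -0.060 to 0.036 (Per3). Per1 ranged from -0.14 to 0.45 at ZT0, -0.24 to -0.082 at ZT4, -0.23 to 0.25 at ZT12 and 0.14 to 0.41 at ZT20, Per2 from 0.89 to 1.35 at ZT4, -0.57 to 0.28 at ZT12 and -0.0042 to 0.16 at ZT16, and Per3 from 0.17 to 0.38 at ZT0, -0.40 to -0.042 at ZT4, -0.77 to 0.12 at ZT8 and -0.062 to 0.21 at ZT20. The Per1 rhythm in WT ranged from 0.0225 to 0.138 (adjusted p), passing only without WT replicate 2 of ZT4, either WT library of ZT8 or WT replicates 3 or 5 of ZT16. Peak differences ranged from -0.67 to 0.60 h (Per1) and 1.27 to 1.74 h (Per3), and the Per3 over Per1 ratio from -0.10 to 0.045. Per3 had the fewest counts of the 3 genes, with 261 in its lowest library, and the part of depth in its spread was not tested.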
